A study of Mus musculus with 4 samples.

Results

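Fracture callus at 4 and 7 days post fracture (dpf) held a population of matrix-producing mesenchymal cells that carry *Postn* and *Aspn*. These cells, called here *Postn* *Aspn* cells, were chosen from single-cell RNA sequencing by their own unique molecular identifiers (UMIs), each of which stands for 1 captured mRNA molecule. A cell was taken if it had at least 20 UMIs of *Col1a1*, at least 10 of *Postn* and at least 5 of *Aspn*, *Edil3* and *Kif26b* together. It could have at most 1 UMI each of *Cxcl14*, *Tnmd*, *Acan*, *Sp7* and *Mki67*, and none of *Pi16* or *Ptprc*. The rule found 1888 of 25479 cells that passed the filter on cell quality (4000 to 50000 UMIs, 2000 to 7000 genes and at most 8% mitochondrial UMIs). The library control_4d held 140 of them, control_7d 832, RA_4d 131 and RA_7d 785.

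The libraries came from the right tibia of male C57BL/6J wild-type mice, 3 months old. In the RA groups a model of rheumatoid arthritis was induced by repeated intraperitoneal injection of K/BxN serum from the day of fracture, and the control groups were injected with vehicle. Each of the 4 libraries was prepared from 1 pool of callus, which the sample labels give as 4 mice and the study's methods as 3. Each condition thus rests on a single library, no test between conditions was made, and the condition cannot be told apart from the library. All intervals are 95% intervals for counting error only. The serum transfer model brings on arthritis by antibodies in a host whose own lymphocytes are intact, and the cells were scraped along the periosteal surface and passed through a strainer, so cells held in mineralized matrix may be missing. The levels of *Xist* in the *Postn* *Aspn* cells were between 0.0481 and 0.639 UMIs per 1000000 UMIs of the cells summed (counts per 1000000, CPM) and those of the Y-linked gene *Ddx3y* between 63.5 and 82.6 CPM.

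Periostin, the product of *Postn*, is a secreted matricellular protein of the periosteum that binds collagen and tenascins. Asporin, the product of *Aspn*, is a small leucine-rich proteoglycan that binds collagen and TGF-β. After fracture, mesenchymal progenitors of the periosteum divide, lay down a provisional collagen matrix and then differentiate along cartilage, bone or fibroblast paths, which is why their matrix, Notch, BMP and growth factor genes are of interest in a healing callus.

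The genes of the rule describe the selection and are not findings. Where 4 values follow each other without names, they are those of control_4d, control_7d, RA_4d and RA_7d. Summed over all *Postn* *Aspn* cells of a library, *Postn* (chromosome 3, 54361109 to 54391037, plus strand of GRCm38) was at 4601 (control_4d), 5427 (control_7d), 3917 (RA_4d) and 5686 CPM (RA_7d). *Aspn* (chromosome 13, 49544443 to 49567565) was at 1169, 1364, 925 and 1042 CPM. Single cells were far above the thresholds, with a median of 107.5, 105, 87 and 117 *Postn* UMIs per cell. *Kif26b*, which encodes a kinesin family protein, had a median of 5 UMIs per cell in RA_4d and of 1 or fewer in the other libraries. *Tnn*, which encodes tenascin N and was not part of the rule, had a UMI in 72.1% (control_4d), 57.5% (control_7d), 50.4% (RA_4d) and 41.4% (RA_7d) of the *Postn* *Aspn* cells.

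The given markers did not all set these cells apart. With every cell thinned at random to 4000 UMIs, *Tnn* was found in 35.7%, 31.7%, 19.8% and 17.2% of the *Postn* *Aspn* cells of control_4d, control_7d, RA_4d and RA_7d. In the other cells with at least 20 *Col1a1* UMIs (called here other *Col1a1* cells; 891, 2563, 701 and 3500 cells) it was found in 15.6%, 36.8%, 14.1% and 10.2%. In cells with at least 2 *Ptprc* UMIs, called here blood cells, which should lack *Tnn*, the share was between 0.378% and 1.96%. *Tnn* and *Edil3* were thus lower in the *Postn* *Aspn* cells than in the other *Col1a1* cells of control_7d, with *Tnn* at 173 against 268 CPM and *Edil3* at 181 against 311 CPM. *Edil3*, although part of the rule, was also lower in control_4d (49.2 against 67.6 CPM) and RA_4d (103 against 111 CPM). In RA_7d it was about level (152 against 151 CPM). Of 21 genes on a list of periosteal and skeletal progenitors, 0 were above the other *Col1a1* cells in all 4 libraries (13.7% of all 12540 genes compared were) and 8 below (19.4%), with a median log2 ratio of -0.09. These genes did not bear out the name committed progenitor, and the cells are named by their rule.

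The positive part of the rule selected little. Of the *Col1a1* cells, 65.9% (control_4d), 87.1% (control_7d), 72.0% (RA_4d) and 74.3% (RA_7d) passed the *Col1a1*, *Postn* and *Aspn*, *Edil3* and *Kif26b* thresholds, and the excluded genes then removed most of them. *Pi16*, a marker of fibroblast progenitors, was the exclusion most often failed in RA_7d, by 39.8% of the cells that passed the positive part. *Cxcl14*, a chemokine of fibroblasts, was failed by 46.4% in RA_4d, and *Acan*, the cartilage proteoglycan aggrecan, by 34.6% in control_7d. The share of *Postn* *Aspn* cells therefore also moves with the level of these genes, and with depth. At the edge of the rule, the 39 cells with 10 to 14 *Postn* UMIs had 596 CPM of *Aspn* and 28.7 CPM of *Tnn*, and the 38 cells with 5 to 9 *Postn* UMIs that met all other conditions had 631 and 36.5 CPM.

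*Postn* *Aspn* cells made up 13.6% of the *Col1a1* cells in control_4d (exact Clopper-Pearson interval 11.5 to 15.8%) and 24.5% in control_7d (23.1 to 26.0%). In RA callus they made up 15.7% at 4 dpf (13.3 to 18.4%) and 18.3% at 7 dpf (17.2 to 19.5%). The share in RA callus was thus lower at 7 dpf, by a ratio of 0.748 (exact conditional interval 0.677 to 0.825), and at 4 dpf the ratio of 1.16 (0.907 to 1.48) held no difference that counting error could resolve. From 4 to 7 dpf the share rose by a ratio of 1.80 (1.51 to 2.17) in control callus and was 1.16 times as high (0.966 to 1.41) in RA callus. With the rule applied to UMIs thinned to 4000 per cell, the ratio in RA callus was 0.911, on the other side of 1. Of all cells that passed the filter, *Postn* *Aspn* cells were 2.56%, 10.8%, 3.19% and 9.55% in control_4d, control_7d, RA_4d and RA_7d. By this measure RA callus stood at 0.881 of control callus (0.798 to 0.972) at 7 dpf. The ratio of 7 to 4 dpf was 4.23 (3.54 to 5.10) in control and 3.00 (2.49 to 3.63) in RA callus. The share of *Col1a1* cells among all cells was itself 44.2% in control_7d and 52.1% in RA_7d.

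**Figure D1:**
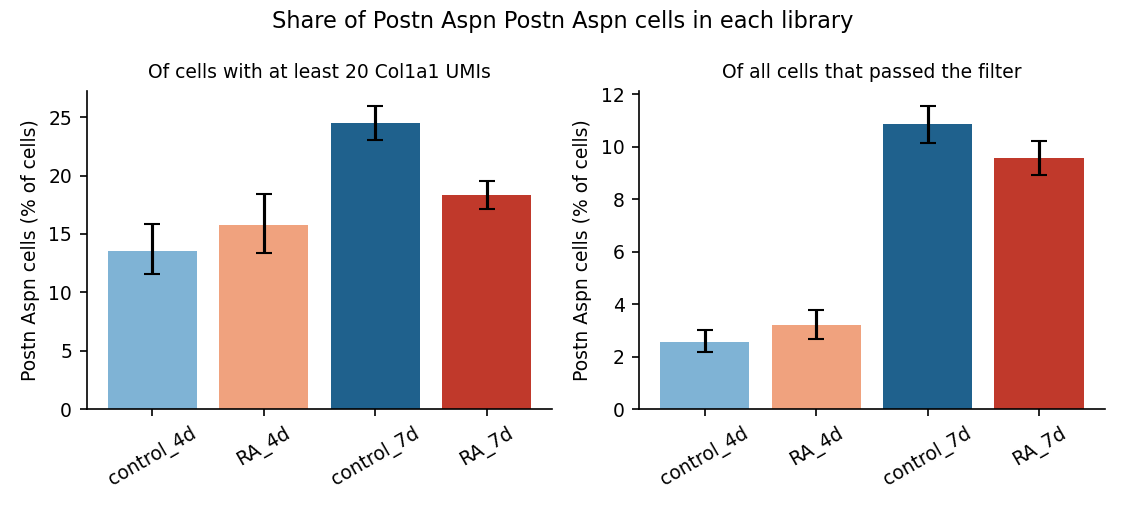
Share of *Postn* *Aspn* cells in each library, as a percentage of cells with at least 20 *Col1a1* UMIs (left) and of all cells that passed the filter (right). Bars are the shares of 1 library each and error bars the exact 95% intervals of counting error; among *Col1a1* cells control_7d stands highest at 24.5%, above RA_7d at 18.3%.

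Depth differed with time. The median *Postn* *Aspn* cell had 34794 UMIs (control_4d), 23554 (control_7d), 32838 (RA_4d) and 26011 (RA_7d), so the libraries of the same time point were closer in depth than those of the same treatment. All *Postn* *Aspn* cells together held 4693302, 20439896, 4113985 and 20784840 UMIs. The 4 dpf values thus rest on fewer cells and UMIs and have wider intervals. Scrublet called 1, 13, 2 and 13 *Postn* *Aspn* cells doublets. Between 10 and 31 cell barcodes were shared by each pair of libraries, and 0 of them were *Postn* *Aspn* cells in both libraries of a pair.

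To see what else the rule brought together, UMIs were summed over the *Postn* *Aspn* cells and over the other *Col1a1* cells of each library, and the log2 ratio of their CPM was taken with a pseudocount of 1 CPM. Because the rule chose the cells by these same libraries, the differences are a description. Of 12540 genes compared, 0 were at least 2-fold higher in the *Postn* *Aspn* cells in all 4 libraries (0%), and 168 were at least 2-fold lower in all 4 (1.34%). The rule itself excludes cells by 7 genes, so that genes which go with these are lower by construction and nothing is read from the count.

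The leading gene was *Lrrc15* (chromosome 16, 30269302 to 30283256), which encodes a leucine-rich repeat membrane protein of activated matrix-producing fibroblasts. In the *Postn* *Aspn* cells it was at 192 (control_4d), 211 (control_7d), 139 (RA_4d) and 236 CPM (RA_7d), and it was at 85.4, 117, 67.5 and 107 CPM in the other *Col1a1* cells. Its log2 ratio lay between 0.85 and 1.16, and after thinning it was found in 33.6 to 46.6% of the *Postn* *Aspn* cells and in 17.0 to 26.3% of the others. In blood cells the share was at most 0.890%, far below that in either kind of *Col1a1* cell.

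Several of the other genes that stood highest belong to the extracellular matrix. *Tnc*, which encodes the matricellular protein tenascin C, was at 556, 634, 398 and 303 CPM in the *Postn* *Aspn* cells and at 245, 478, 262 and 209 CPM in the others. *Pxdn* and *Loxl2* encode enzymes that crosslink collagen, and *Col24a1* and *Col5a3* encode fibrillar collagen chains. *Col5a3* was at 707, 821, 317 and 982 CPM in the *Postn* *Aspn* cells against 468, 461, 249 and 584 CPM. With the rule applied to thinned UMIs the lowest of the 4 log2 ratios was -0.16 for *Col5a3* and -0.05 for *Loxl2*, so neither gene then stood higher in all 4 libraries. Of the 18 collagen genes on a list of fibrillar and associated collagens, 7 were above and 2 below the other *Col1a1* cells in all 4 libraries, and of 22 matricellular genes 6 were above and 7 below, against 13.7% and 19.4% of all genes.

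Genes of 3 secreted or membrane-bound signals were also among the 20 that stood highest. Of 32 BMP and TGF-β genes 4 were above and 12 below in all 4 libraries, of 30 Wnt genes 3 and 9, and of 22 Notch genes 4 and 2, against 13.7% and 19.4% of all genes. *Jag1*, which encodes a Notch ligand, was at 111, 126, 98.7 and 166 CPM in the *Postn* *Aspn* cells and at 80.9, 83.6, 65.5 and 102 CPM in the others. *Tgfb2*, which encodes a TGF-β ligand, was at 394, 403, 349 and 444 CPM against 302, 308, 274 and 332 CPM. *Ptn*, which encodes the heparin-binding growth factor pleiotrophin, was at 426, 951, 370 and 1205 CPM against 296, 693, 197 and 582 CPM. The remaining genes among the 20 that stood highest were *Lrrc17*, *Stard13*, *Mex3b*, *Fhl2*, *Frmd4a*, *Isg15*, *Glipr2*, *Arhgap31*, *Supt20*, *Magi1* and *Mfhas1*.

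Genes of tendon, joint lining and complement were among the lowest. *Fmod* and *Kera*, which encode the proteoglycans fibromodulin and keratocan, and *Comp*, which encodes a cartilage and tendon matrix protein, had the largest falls. *Fmod* was at 24.9, 57.1, 60.5 and 50.4 CPM in the *Postn* *Aspn* cells and at 702, 514, 709 and 458 CPM in the others. *Prg4*, which encodes lubricin, was at 203, 30.2, 171 and 28.6 CPM against 822, 128, 668 and 162 CPM. *C3*, which encodes the central complement protein, was at 139, 77.3, 238 and 293 CPM against 790, 189, 797 and 961 CPM. *Lyz2* and *Apoe*, genes of macrophages, also stood among the 10 lowest. Of 14 tendon genes 7 were at least 2-fold lower in all 4 libraries, as were 7 of 12 chondrogenic genes compared and 1.34% of all genes. *Tnmd* and *Acan*, by which the rule excluded cells, belong to these lists, so the counts describe the selection and nothing is read from them.

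**Figure D2:**
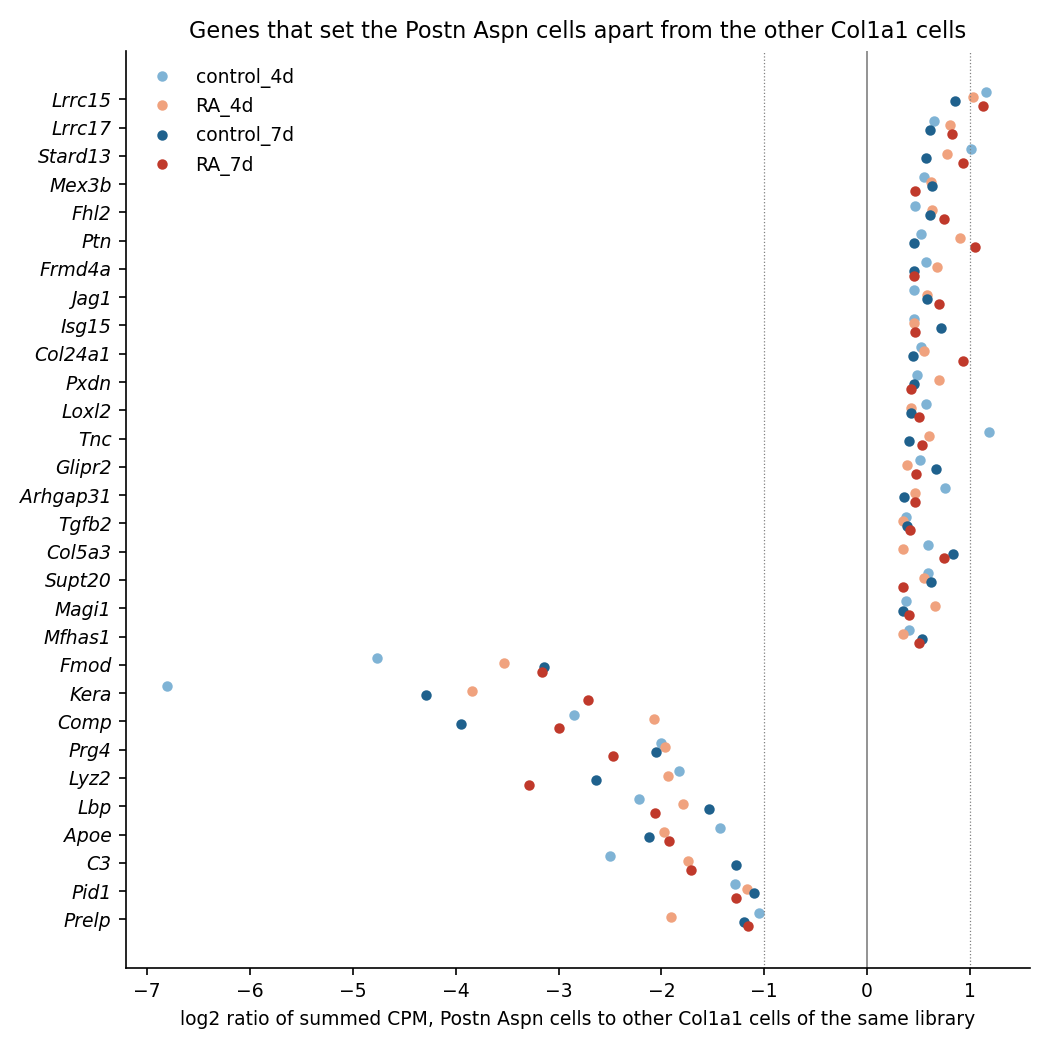
Log2 ratio of summed CPM in *Postn* *Aspn* cells to that in the other *Col1a1* cells of the same library, for the 20 genes that stood highest and the 10 that stood lowest in all 4 libraries. Each point is 1 library and dotted lines mark 2-fold; *Lrrc15* lies between 0.85 and 1.16, and the falls of *Fmod*, *Kera* and *Comp* are larger than any rise.

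A pair of more sharply drawn classes showed on which side each gene lay. *Cxcl14* fibroblasts were *Col1a1* cells with at least 10 *Cxcl14* UMIs that met the other exclusions (402 cells), and *Acan*-positive cells had at least 3 *Acan* UMIs likewise (583 cells). Against *Cxcl14* fibroblasts, 15 of 8944 genes were at least 2-fold higher in the *Postn* *Aspn* cells in all 4 libraries (0.168%) and 79 lower (0.883%). *Tnn* was at 159, 173, 125 and 83.3 CPM in the *Postn* *Aspn* cells and at 14.8, 67.4, 50.8 and 19.2 CPM in *Cxcl14* fibroblasts. *Pdgfc*, which encodes a platelet-derived growth factor, was at 98.4, 92.8, 85.8 and 71.5 CPM against 10.4, 48.5, 24.9 and 11.1 CPM. *Apod*, a lipid carrier of fibroblasts, was at 88.8, 105, 123 and 153 CPM in the *Postn* *Aspn* cells and at 836, 579, 866 and 1175 CPM in *Cxcl14* fibroblasts.

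Against *Acan*-positive cells the order turned. Of 8323 genes, 65 were at least 2-fold higher in the *Postn* *Aspn* cells in all 4 libraries (0.781%) and 23 lower (0.276%). *Tnn* now stood lower in the *Postn* *Aspn* cells, since *Acan*-positive cells had 524, 556, 493 and 300 CPM. *Cd34*, which encodes a surface protein of stromal progenitors, was at 231, 141, 87.0 and 255 CPM in the *Postn* *Aspn* cells against 62.7, 34.1, 33.5 and 75.8 CPM. *Sox9*, which encodes the master transcription factor of cartilage, was at 85.9, 95.9, 127 and 81.5 CPM against 147, 282, 270 and 294 CPM. Cells with at least 3 *Sp7* UMIs that met the other exclusions numbered 4 and were not compared. The share of *Acan*-positive cells among *Col1a1* cells was 10.8% in control_7d and 3.59% in RA_7d (ratio 0.333, 0.274 to 0.404). That of *Cxcl14* fibroblasts was 2.36% and 3.97% (1.68, 1.28 to 2.22), so both neighbours of the *Postn* *Aspn* cells also differed at 7 dpf. At 4 dpf the ratios of RA to control callus were 0.871 (0.506 to 1.48) for *Acan*-positive cells and 1.75 (1.25 to 2.46) for *Cxcl14* fibroblasts.

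Regulators of the skeletal lineages were present in the *Postn* *Aspn* cells, while some genes of mature bone were low. *Runx2*, which encodes the transcription factor that starts osteoblast differentiation, was found after thinning in 32.1%, 41.5%, 50.4% and 37.5% of the *Postn* *Aspn* cells and in 12.5 to 15.8% of blood cells. *Sox9* was found in 15.7%, 30.4%, 37.4% and 23.1% of the *Postn* *Aspn* cells, against at most 1.5% of blood cells. *Alpl*, which encodes the alkaline phosphatase of osteoblasts, was at 1.70, 14.6, 7.54 and 7.65 CPM. *Col2a1*, which encodes the main collagen of cartilage, was found in 10.2% of the *Postn* *Aspn* cells of control_7d and 8.28% of RA_7d, below the 17.1% and 16.4% of blood cells, and is read as background. *Mepe* and *Phospho1*, genes of osteocytes and mineralizing cells, were at 0 in all 4 libraries, where the limit that a count of 0 allows (3 UMIs) is between 0.144 and 0.729 CPM. Of 14 osteogenic genes compared, 0 were above and 5 below the other *Col1a1* cells in all 4 libraries, against 13.7% and 19.4% of all genes, and 0 were at least 2-fold lower in all 4, against 1.34%, with a median of -0.38. The 24 genes of the list other than *Sp7* summed to 8744, 7393, 7245 and 9605 CPM in the *Postn* *Aspn* cells and to 8903, 10019, 7453 and 9912 CPM in the other *Col1a1* cells, nearly all of it *Sparc*, which encodes the matrix protein osteonectin.

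A small number of cells of other types passed the rule. At least 5 UMIs of *Rgs5*, a gene of pericytes, were present in 2, 26, 3 and 18 *Postn* *Aspn* cells in that order, which is 49 of 1888 (2.60%). Their *Notch3*, a Notch receptor of mural cells, was at 687, 428, 592 and 441 CPM, against 15.6, 24.8, 24.1 and 21.4 CPM in all *Postn* *Aspn* cells. At least 5 UMIs of *Sox10* and *Cdh19* together, a transcription factor and a cadherin of Schwann cells, were present in 1, 3, 0 and 19 *Postn* *Aspn* cells, in all 23 (1.22%), 19 of them in RA_7d. The cells of the first kind are called the *Rgs5* cells and those of the second the *Sox10* cells. Both thresholds were set after seeing the data. Some of the values below that these cells could move are given also without them, and the others include them.

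Markers of macrophages were lower than in the other *Col1a1* cells, and those of other cell types were low or uneven. The 12 macrophage and myeloid genes other than *Ptprc* summed to 91.8, 129, 74.9 and 62.0 CPM in the *Postn* *Aspn* cells against 380, 831, 314 and 611 CPM in the other *Col1a1* cells, with *Lyz2* the most abundant. The 6 neutrophil genes summed to 6.18, 26.6, 78.5 and 10.8 CPM, highest in RA_4d, and the 6 lymphocyte genes to 4.05, 6.75, 8.26 and 4.52 CPM, against 6.56, 7.42, 5.91 and 5.60 CPM in the others. The 8 endothelial genes summed to 64.6, 93.2, 89.9 and 81.4 CPM, led by *Pecam1*, and the 8 muscle genes to 30.9, 45.2, 28.9 and 33.3 CPM. The 8 mural genes summed to 119, 208, 230 and 154 CPM, led by *Rgs5*, against 319, 160.1, 154 and 166 CPM in the others. Without the *Rgs5* and *Sox10* cells the mural sums were 31.1, 55.5, 42.8 and 65.6 CPM, and control_7d then stood below RA_7d. *Rgs5* is part of these sums and also chose cells that were left out, so lower sums follow by construction. Such cells were not taken out of the other *Col1a1* cells, so these sums are not compared with theirs. The 5 erythroid genes summed to 1015, 343, 6.32 and 450 CPM, so that RA_4d stood far below the other libraries, and to 475, 628, 39.9 and 432 CPM in the others. In control_4d 1 cell held 59.7% of the UMIs of *Hbb-bs*, a globin gene. *Gm42418*, a transcript that overlaps ribosomal RNA, was at 18665, 12040, 32140 and 13824 CPM and was thus highest in RA_4d. The part of these differences in the comparisons below was not tested.

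Within the *Postn* *Aspn* cells, RA and control callus were then compared at each time point. At 7 dpf the comparison took in 13454 genes, each with 50 or more UMIs in the summed *Postn* *Aspn* cells of that time point. Of these, 177 were at least 2-fold higher in RA callus (1.32%) and 115 at least 2-fold lower (0.855%). Without the *Rgs5* and *Sox10* cells 131 were higher and 128 lower. At 4 dpf 9994 genes were compared, with 155 higher (1.55%) and 132 lower (1.32%). The median log2 ratio over all genes was -0.05 at 7 dpf and -0.01 at 4 dpf. Counts of list genes above or below 0 are given below without the share of all genes. Nothing is read from those counts, and the list medians are to be set beside the medians of all genes.

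Genes that differed by at least 2-fold in the same direction at both time points were few, 13 of 9992 genes compared at both. Another 19 passed 2-fold at both times in opposite directions. *Eln* (chromosome 5, 134702593 to 134747323), which encodes elastin, was at 63.7 CPM in control_4d and 292 in RA_4d, and at 120 in control_7d and 551 in RA_7d. The log2 ratio for RA over control callus was 2.18 (2.01 to 2.38) at 4 dpf and 2.19 (2.13 to 2.26) at 7 dpf. The UMIs were spread unevenly, since the 5% of cells with most *Eln* held 68.0% of them in RA_7d and 69.0% in control_7d, while the share of cells with *Eln* after thinning was 31.5% and 18.5%. At 4 dpf 7 cells held 72.7% of its UMIs in RA_4d and 56.9% in control_4d, and the thinned shares of 22.1% (15.4 to 30.2%) and 14.3% (8.95 to 21.2%) had overlapping intervals. In the other *Col1a1* cells the log2 ratio was 0.92 at 4 dpf and 1.94 at 7 dpf. *Sfrp2*, which encodes a secreted modulator of Wnt signalling, was at 394 CPM in control_4d and 939 in RA_4d, and at 247 in control_7d and 821 in RA_7d, with log2 ratios of 1.25 and 1.73. Its ratios in the other *Col1a1* cells were 1.04 and 1.28.

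*Enpp1* and *Bmp5* were lower in RA callus at both times. *Enpp1*, which encodes the enzyme that makes the mineralization inhibitor pyrophosphate, was at 59.7 CPM in control_4d, 18.2 in RA_4d, 64.6 in control_7d and 20.9 in RA_7d. *Bmp5*, which encodes a bone morphogenetic protein, was at 45.4, 14.1, 57.3 and 19.004 CPM in the same order. The log2 ratios of *Enpp1* were -1.66 (-2.10 to -1.34) at 4 dpf and -1.58 (-1.79 to -1.47) at 7 dpf, and those of *Bmp5* -1.62 (-2.13 to -1.26) and -1.54 (-1.76 to -1.43). In the other *Col1a1* cells both genes were lower at 7 dpf by a similar amount (-1.51 and -1.42), whereas at 4 dpf the values were -0.38 and -0.19. After thinning, *Enpp1* was found at 4 dpf in 12.1% (7.24 to 18.7%) of the control and 7.63% (3.72 to 13.6%) of the RA cells and *Bmp5* in 11.4% (6.68 to 17.9%) and 3.82% (1.25 to 8.68%), with overlapping intervals. At 7 dpf the shares were 18.3% and 7.13% for *Enpp1* and 17.2% and 7.64% for *Bmp5*. Blood cells had *Enpp1* in 5.17 to 7.56%, close to its share in the RA cells, and *Bmp5* in at most 0.5%. That the 4 dpf difference was particular to the *Postn* *Aspn* cells was not tested.

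Contractile genes were lower in RA callus at 7 dpf. *Acta2*, which encodes smooth muscle actin and marks myofibroblasts, was at 362 CPM in control_4d, 470 in RA_4d, 474 in control_7d and 131 in RA_7d, and only RA_7d stood low. *Tagln*, which encodes the actin-binding protein transgelin, was at 186, 204, 280 and 91.7 CPM in the same order, and *Myl9*, a myosin light chain, at 79.9, 115, 98.8 and 40.4 CPM. The log2 ratio at 7 dpf was -1.85 (-1.92 to -1.79) for *Acta2*, -1.60 (-1.69 to -1.54) for *Tagln* and -1.27 (-1.41 to -1.17) for *Myl9*. In the other *Col1a1* cells the falls were of similar size, with -1.79, -1.64 and -1.28. Without the *Rgs5* and *Sox10* cells *Acta2* was still at 433 CPM in control_7d and 118 in RA_7d. After thinning, *Acta2* was found in 37.4% of the *Postn* *Aspn* cells of control_7d and 18.2% of RA_7d, and in blood cells in 4.81% and 3.62%. Of 18 actin and contractile genes, 5 were at least 2-fold lower in RA callus at 7 dpf, against 0.855% of all genes, and 16 were below 0 with a median log2 ratio of -0.48. At 4 dpf the median was 0.26, with 14 of 16 genes above 0. The 5 genes were *Acta2*, *Tagln*, *Myl9*, *Tpm2* and *Cnn1*, and *Myh11*, a myosin of smooth muscle, was at least 2-fold higher (9.74 to 22.1 CPM, and 1.71 to 14.9 CPM without the *Rgs5* and *Sox10* cells). The 4 dpf values rest on few cells, since without the *Rgs5* and *Sox10* cells *Tagln* was at 185 CPM in control_4d and 117 in RA_4d, in place of 186 and 204.

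The promoters of *Myl9* and *Acta2* are shown, 1 with and 1 without an exact match to the CArG box, the site of serum response factor that many smooth muscle promoters hold. The RefSeq windows run from 250 bases before to 50 bases after the start of the gene (GRCm38.p6, in the direction of the gene), and the CArG box is printed in capitals.
Myl9, chr2:156775214-156775513, plus strand: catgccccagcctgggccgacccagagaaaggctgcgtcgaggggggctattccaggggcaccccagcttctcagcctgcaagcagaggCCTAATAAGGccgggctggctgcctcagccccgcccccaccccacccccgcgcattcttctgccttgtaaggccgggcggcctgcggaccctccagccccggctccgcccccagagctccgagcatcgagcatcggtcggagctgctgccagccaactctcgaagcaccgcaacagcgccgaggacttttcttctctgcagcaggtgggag
Acta2, chr19:34255324-34255623, minus strand: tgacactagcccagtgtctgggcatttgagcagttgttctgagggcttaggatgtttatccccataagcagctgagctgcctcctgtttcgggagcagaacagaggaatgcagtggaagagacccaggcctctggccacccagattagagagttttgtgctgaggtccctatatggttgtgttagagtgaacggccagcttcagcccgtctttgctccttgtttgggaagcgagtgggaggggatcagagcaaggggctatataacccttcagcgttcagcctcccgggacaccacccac
The box, which reads the same on both strands as a pattern, occurred in 535 of 32851 RefSeq windows of this length (1.63%). *Myl9* had 1, which starts 161 bases before the start of the gene. No window was examined for *Tagln*, which fell as well. The window of *Acta2* held no exact match, and nor did those of *Tpm2* and *Cnn1*, which also fell, or those of *Tpm1* and *Cald1*. This says only that these letters are not in the windows, and boxes that depart from the pattern by a base were not searched for. The printed *Acta2* window does hold ccctatatgg and ccttgtttgg, which each depart from the pattern by 1 base and are not in capitals. The lack of an exact match is thus not read as the lack of a site.

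A part of the fibroblast genes was higher in RA callus at 7 dpf and a part lower at 4 dpf. At 7 dpf, of 19 fibroblast genes compared, 6 were at least 2-fold higher, against 1.32% of all genes, and 0 lower, with a median log2 ratio of 0.63. They were *Gdf10* (10.1 to 55.8 CPM), *Mmp3* (66.3 to 262), *C3* (77.3 to 293), *Dpp4* (16.2 to 48.7), *Col15a1* (47.2 to 110) and *Sfrp4* (85.3 to 189). *Mmp3* encodes a matrix metalloproteinase of inflamed synovium and *Gdf10* a ligand of the TGF-β family. In the other *Col1a1* cells *Gdf10*, *Mmp3*, *C3* and *Col15a1* were higher as well, with log2 ratios of 2.56, 2.54, 2.34 and 1.11. At 4 dpf *Gdf10* was at 9.80 CPM in control and 11.7 CPM in RA callus and *Mmp3* at 43.5 and 64.9 CPM, so both genes were highest in RA_7d. Of 18 fibroblast genes compared at 4 dpf, 1 was at least 2-fold higher, against 1.55% of all genes, and 5 lower, against 1.32%, with a median of -0.30. *Sfrp4* was at 77.8 CPM in control_4d and 34.3 in RA_4d, and *Dpp4* at 41.1 and 5.83 CPM, so that both turned between the times. *Cxcl14* and *Pi16*, members of the same list, were held low by the rule, and the neighbouring *Cxcl14* fibroblasts had more *Gdf10* (84.1 and 246 CPM) and more *C3* (534 and 1762 CPM) at 7 dpf. A complement and acute phase list was chosen after these values were seen. Of its 19 genes compared at 7 dpf, 3 were at least 2-fold higher, against 1.32% of all genes. At least 2-fold lower was 1, against 0.855%, and the median log2 ratio was 0.56. *Ccl8*, a chemokine gene, was at 38.5 CPM in control_7d and 184 in RA_7d, but blood cells had 639 and 1767 CPM.

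*Csmd1*, which encodes a membrane protein with CUB and Sushi domains, had the largest rise at 7 dpf of the genes that reached 50 CPM, from 10.8 to 93.5 CPM. The 5% of *Postn* *Aspn* cells with most *Csmd1* held 91.6% of its UMIs in RA_7d, and the *Sox10* cells had 1987 CPM in control_7d and 3999 CPM in RA_7d. Without the *Rgs5* and *Sox10* cells *Csmd1* was at 3.57 and 27.6 CPM. Of 4 Schwann cell genes, 3 were at least 2-fold higher in RA_7d than in control_7d (*Sox10*, *Cdh19* and *Mbp*), against 1.32% of all genes. The 4 summed to 16.4 CPM in control_7d and 36.8 in RA_7d, and to 13.99 and 14.4 CPM without the *Rgs5* and *Sox10* cells. *Sox10* and *Cdh19* also chose the cells left out, so a lower sum follows by construction.

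*Igf2* and several other genes were at least 2-fold lower in RA callus at 7 dpf. *Igf2*, which encodes an insulin-like growth factor of fetal tissue, was at 11.5 CPM in control_4d, 14.3 in RA_4d, 197 in control_7d and 45.5 in RA_7d, a log2 ratio at 7 dpf of -2.09 (-2.22 to -2.01). After thinning it was found in 21.2% of the *Postn* *Aspn* cells of control_7d and in 7.64% of RA_7d. *Mest*, also an imprinted gene, was at 739 and 315 CPM. On a list of imprinted genes chosen after their values were seen, 2 of 18 were at least 2-fold lower, against 0.855% of all genes, with a median of -0.29. *Fabp5*, a fatty acid carrier, was at 275 and 69.1 CPM, although blood cells had 1412 and 625 CPM of *Fabp5*. *Inhba*, which encodes a subunit of activin, was at 63.5 and 22.4 CPM. *Pcdh17*, which encodes a protocadherin, was at 54.3 and 9.38 CPM. *Tnc* and *Tnn* were each lower by about the same amount, with log2 ratios of -1.06 and -1.05. In the other *Col1a1* cells these genes were lower as well, with -1.19 for *Tnc* and -1.95 for *Tnn*. The ratios there were -1.05 for *Igf2*, -0.95 for *Mest*, -2.01 for *Fabp5*, -1.49 for *Inhba* and -1.70 for *Pcdh17*. *Ibsp*, which encodes bone sialoprotein, was at 54.8 and 8.61 CPM, but 5% of the cells held 91.1% of its UMIs in control_7d. After thinning *Ibsp* was found in 5.05% of the *Postn* *Aspn* cells of control_7d and 2.68% of RA_7d. The shares of blood cells were close to these, at 4.85% and 3.28%, while 1 cell of control_7d held 230 of the 1120 *Ibsp* UMIs. Background and a few cells with many UMIs were not told apart.

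Of 22 glycolysis genes compared at 7 dpf, 20 were below 0 and 3 at least 2-fold lower (*Pgk1*, *Slc16a3* and *Bnip3*), against 0.855% of all genes, with a median log2 ratio of -0.61. *Gapdh* was at 1251 CPM in control_4d, 1078 in RA_4d, 901 in control_7d and 588 in RA_7d, and *Ldha*, which encodes a lactate dehydrogenase subunit, at 409, 293, 317 and 164 CPM in the same order. At 4 dpf the median was -0.22 and 0 of 21 genes passed 2-fold. The 45 oxidative phosphorylation genes had medians of -0.24 at 7 dpf and -0.21 at 4 dpf, against -0.05 and -0.01 of all genes, with 0 past 2-fold. Below 0 were 44 and 43 of them, without the share of all genes. Of 26 cell cycle genes, 24 were below 0 at 7 dpf, with 3 at least 2-fold lower, against 0.855% of all genes, but *Mki67* was itself held low by the rule. Of 23 cholesterol synthesis genes, 21 were below 0, with a median of -0.42.

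The Notch, BMP and inflammation lists held few genes past 2-fold at 7 dpf, where 1.32% of all genes were at least 2-fold higher and 0.855% lower. Notch signalling passes from ligands such as Jagged to receptors on the next cell and to the transcription factor that *Rbpj* encodes. *Rbpj* was at 109 (control_4d), 106 (control_7d), 98.2 (RA_4d) and 94.4 CPM (RA_7d), a log2 ratio of -0.16 (-0.25 to -0.07) at 7 dpf. After thinning it was found in 35 of 140 *Postn* *Aspn* cells of control_4d and in 35.3%, 29.8% and 32.6% of those of the other libraries, and in 52.2 to 62.2% of blood cells. Of 24 Notch genes, 0 were at least 2-fold higher and 1 at least 2-fold lower (*Heyl*, 12.8 to 5.20 CPM), with a median of -0.07. *Hes1*, a Notch target, was at 173, 239, 237 and 262 CPM. Of 33 BMP and TGF-β genes 1 was at least 2-fold higher (*Gdf10*) and 2 lower (*Bmp5* and *Inhba*), with a median of 0.03. Of 25 immediate early and stress genes, which rise when tissue is dissociated, 23 were above 0 with a median of 0.36 and 0 past 2-fold. Of 37 inflammation genes 1 was at least 2-fold higher, with a median of 0.14.

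The remaining pathway and lineage lists at 7 dpf had medians between -0.36 and 0.24, and their counts stand against 1.32% of all genes at least 2-fold higher and 0.855% lower. Of 16 osteogenic genes 4 were at least 2-fold lower (*Ibsp*, *Enpp1*, *Bglap* and *Bglap2*), with a median of -0.36, although few cells of control_7d held most *Ibsp* UMIs. Of 19 chondrogenic genes 1 was higher (*Sox6*, 4.65 to 12.0 CPM, but 4.08 to 2.24 CPM without the *Rgs5* and *Sox10* cells), with a median of -0.15. Of 22 metalloproteinases and inhibitors, 3 were higher and 1 lower, with a median of 0.24. Collagens had 1 of 18 higher (median 0.20), tendon genes 1 of 12 higher and 1 lower (0.18), Wnt genes 3 of 32 higher (0.07), Hedgehog genes 0 of 10 (-0.07), and skeletal progenitor genes 2 of 21 lower (0.05), which were *Acta2* and *Tagln*. Matricellular genes had 3 of 22 lower (0.03), proteoglycans 1 of 13 higher (-0.03), collagen processing genes 0 of 23 (-0.14), IGF and PDGF genes 1 of 18 higher and 1 lower (0.01), and limb transcription factors 1 of 35 higher and 1 lower (0.05). Among the markers of other cell types, 4 of 11 macrophage and myeloid genes compared were at least 2-fold lower in RA callus (median -0.94), 2 of 3 neutrophil genes were lower (-1.14), and 0 of 2 lymphocyte (-0.50), 0 of 4 erythroid (0.40) and 0 of 8 endothelial genes (-0.15) passed 2-fold. Of 8 mural genes 1 was higher and 2 lower (-0.28), and of 5 muscle genes 1 was lower (-0.27).

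**Figure D3:**
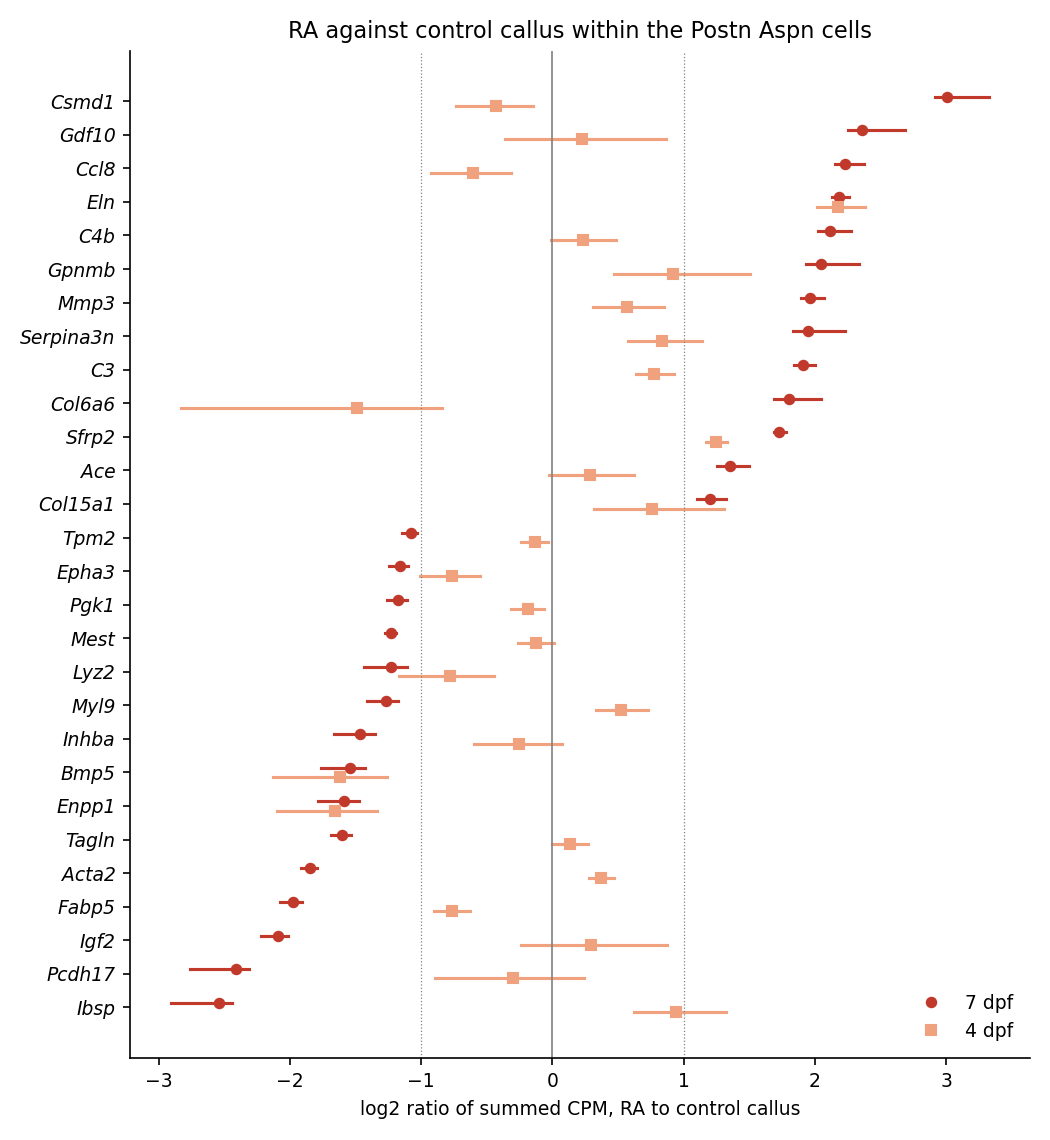
Log2 ratio of summed CPM in RA to control callus within the *Postn* *Aspn* cells, at 7 dpf (circles) and 4 dpf (squares), for the genes with the largest rises and falls at 7 dpf, among all genes or among those of the same direction at 4 dpf. Horizontal bars are 95% intervals of counting error and dotted lines mark 2-fold; *Eln*, *Sfrp2*, *Enpp1* and *Bmp5* lie past 2-fold at both times, and *Acta2* and *Tagln* at 7 dpf only.

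The change from 4 to 7 dpf was followed in each treatment. In control callus 12393 genes were compared, of which 268 were at least 2-fold higher at 7 dpf (2.16%) and 77 at least 2-fold lower (0.621%). In RA callus 12377 were compared, with 436 higher (3.52%) and 230 lower (1.86%). The median log2 ratios were 0.07 and 0.01. Here too, counts of list genes above or below 0 lack the share of all genes, and nothing is read from them. The 4 dpf libraries held fewer *Postn* *Aspn* cells with more UMIs each.

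*Dlk1*, *Igf2* and several other imprinted genes were higher at 7 than at 4 dpf. Imprinted genes are active from the copy of 1 parent, and several are known for their part in fetal growth. *Dlk1* (chromosome 12, 109452823 to 109463336), which encodes a membrane protein of progenitor cells related to the Notch ligands, was at 12.4 (control_4d), 395 (control_7d), 43.5 (RA_4d) and 212 CPM (RA_7d). Its log2 ratio was 4.89 (4.62 to 5.40) in control callus and 2.26 (2.07 to 2.51) in RA callus. The 4 dpf levels rest on few cells, since 7 cells held 94.8% of the 58 UMIs in control_4d and 7 cells 87.7% of the 179 in RA_4d. After thinning *Dlk1* was found in 2.86% and 28.6% of the control *Postn* *Aspn* cells. In the RA *Postn* *Aspn* cells the shares were 7.63% and 19.9%, against at most 1.31% of blood cells. In the other *Col1a1* cells *Dlk1* was at 9.44, 119, 18.5 and 83.7 CPM in the order control_4d, control_7d, RA_4d and RA_7d.

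*Igf2* rose with a log2 ratio of 3.98 (3.71 to 4.51) in control callus and 1.60 (1.29 to 2.07) in RA callus. Its 4 dpf levels rest on single cells, since 1 cell held 61.1% of the 54 UMIs in control_4d and 1 cell 76.3% of the 59 in RA_4d. *Mest* went from 200 to 739 CPM in control callus and from 184 to 315 CPM in RA callus. *Cdkn1c*, which encodes an inhibitor of the cell cycle, went from 136 to 466 CPM and from 95.3 to 280 CPM. *Meg3*, a long noncoding RNA of the *Dlk1* locus, went from 749 to 1761 CPM and from 795 to 1576 CPM. On a list of imprinted genes chosen after these values were seen, 9 of 18 genes were at least 2-fold higher in control callus, against 2.16% of all genes, and 4 of 18 in RA callus, against 3.52%, with medians of 0.92 and 0.54. Whether the rise differed between control and RA callus was not tested.

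**Figure D4:**
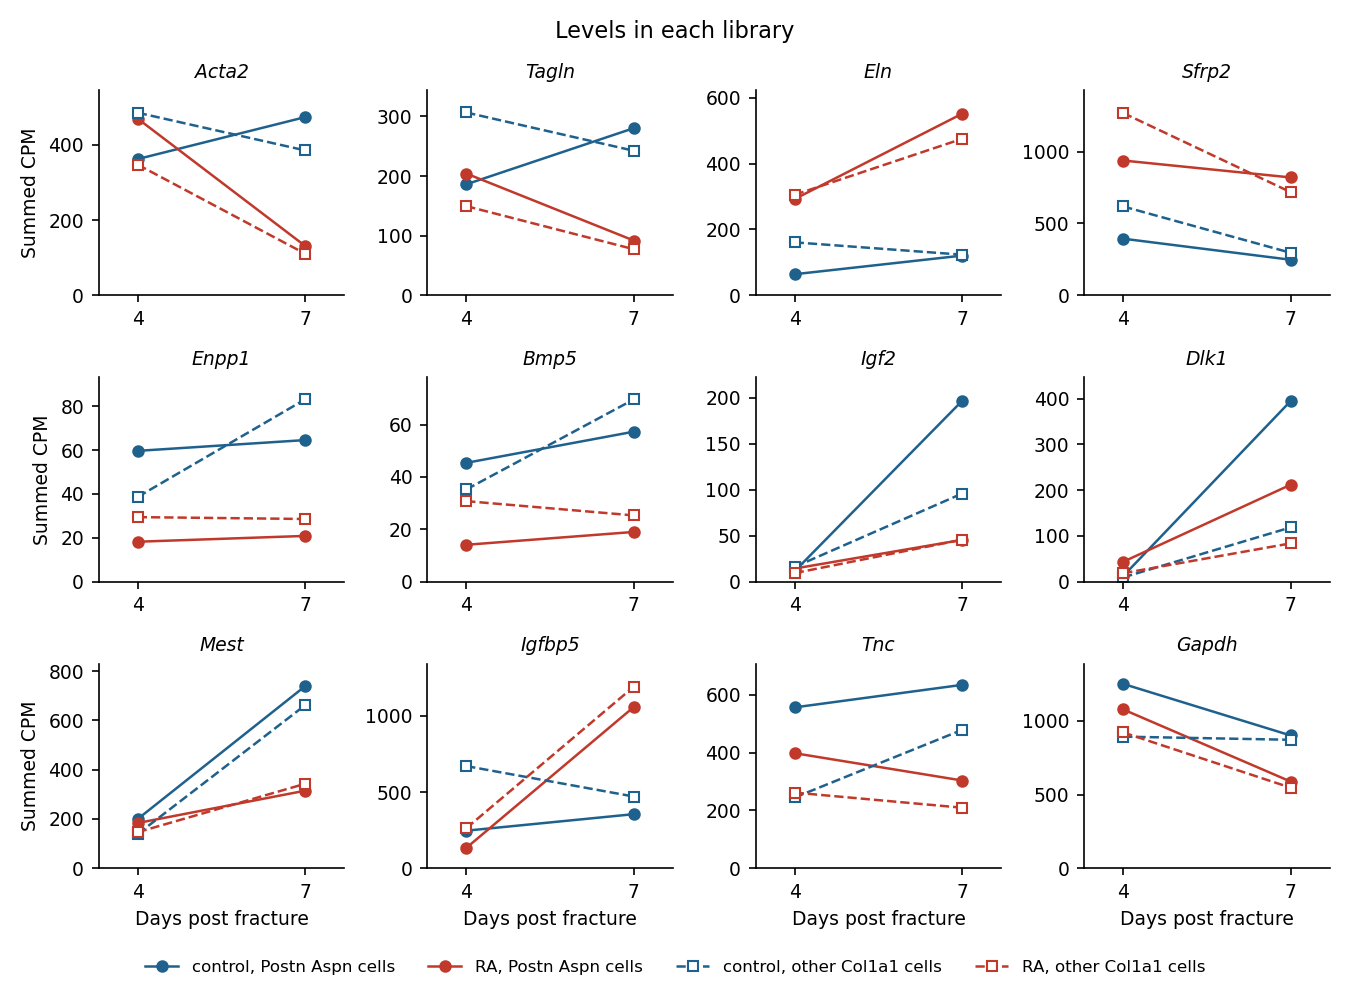
Summed CPM of 12 genes at 4 and 7 dpf in control (blue) and RA (red) callus, in the *Postn* *Aspn* cells (filled circles, solid lines) and the other *Col1a1* cells (open squares, dashed lines). Each point is 1 library; *Acta2* and *Tagln* are lowest in RA_7d in both kinds of cells, *Eln* and *Sfrp2* are higher in RA callus at both times, and *Dlk1* reaches 395 CPM in the control *Postn* *Aspn* cells at 7 dpf.

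Other genes rose in both treatments. *Mmp13*, which encodes a collagenase of callus remodelling, went from 33.5 to 153 CPM in control callus and from 24.3 to 164 CPM in RA callus, with 93.2% and 91.1% of its 7 dpf UMIs in 5% of the cells. *Mdk*, which encodes the growth factor midkine, went from 47.1 to 193 CPM and from 56.4 to 173 CPM. *Col18a1*, which encodes a basement membrane collagen, went from 62.0 to 221 CPM and from 98.4 to 287 CPM, with 30.9 CPM in control_4d once its *Rgs5* and *Sox10* cells were left out. *Prg4* fell from 203 to 30.2 CPM and from 171 to 28.6 CPM. *Chl1*, which encodes a cell adhesion molecule, fell from 157 to 28.3 CPM and from 158 to 42.0 CPM. *Edil3*, a gene of the rule, went from 49.2 to 181 CPM in control callus and from 103 to 152 CPM in RA callus.

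Of 18 chondrogenic genes 11 were at least 2-fold higher at 7 than at 4 dpf in control callus, against 2.16% of all genes, and 9 in RA callus, against 3.52%, with medians of 1.25 and 1.15. The 11 take in *Acan* (2.13 to 6.80 CPM), which the rule held to at most 1 UMI per cell. *Col10a1* and *Hapln1*, structural genes of cartilage, had no UMI in control_4d (under 0.639 CPM) and 4.79 and 5.14 CPM in control_7d, where blood cells had 7.34 and 6.07 CPM. For such genes the fitted ratio depends on the pseudocount. *Col2a1* went from 0.426 to 25.1 CPM and from 0.729 to 22.5 CPM, while blood cells had 39.8 and 46.0 CPM at 7 dpf. The transcription factors *Sox5* and *Sox9* were below 2-fold in both treatments, with *Sox9* at 85.9 and 95.9 CPM in control callus and at 127 and 81.5 CPM in RA callus.

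In RA callus a set of fibroblast genes was higher at 7 dpf. Of 19 fibroblast genes, 9 were at least 2-fold higher, against 3.52% of all genes, with a median log2 ratio of 1.00, and in control callus 2 were higher, against 2.16%, and 2 lower, against 0.621%, with a median of 0.01. *Igfbp5*, which encodes a binding protein of insulin-like growth factors, was at 247 (control_4d), 355 (control_7d), 133 (RA_4d) and 1059 CPM (RA_7d). *Clec3b*, which encodes tetranectin, was at 203, 205, 66.1 and 360 CPM, and *Igfbp6* at 486, 509, 123 and 850 CPM in the same order. RA_4d was the lowest and RA_7d the highest of the 4 libraries for each of the 3 genes. *Sfrp1*, which encodes a Wnt modulator, was at 281, 182, 436 and 108 CPM, highest in RA_4d and lowest in RA_7d. Of 18 actin and contractile genes 18 were below 0 from 4 to 7 dpf in RA callus, with a median of -0.65, and 13 above 0 in control callus, with a median of 0.23.

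**Figure D5:**
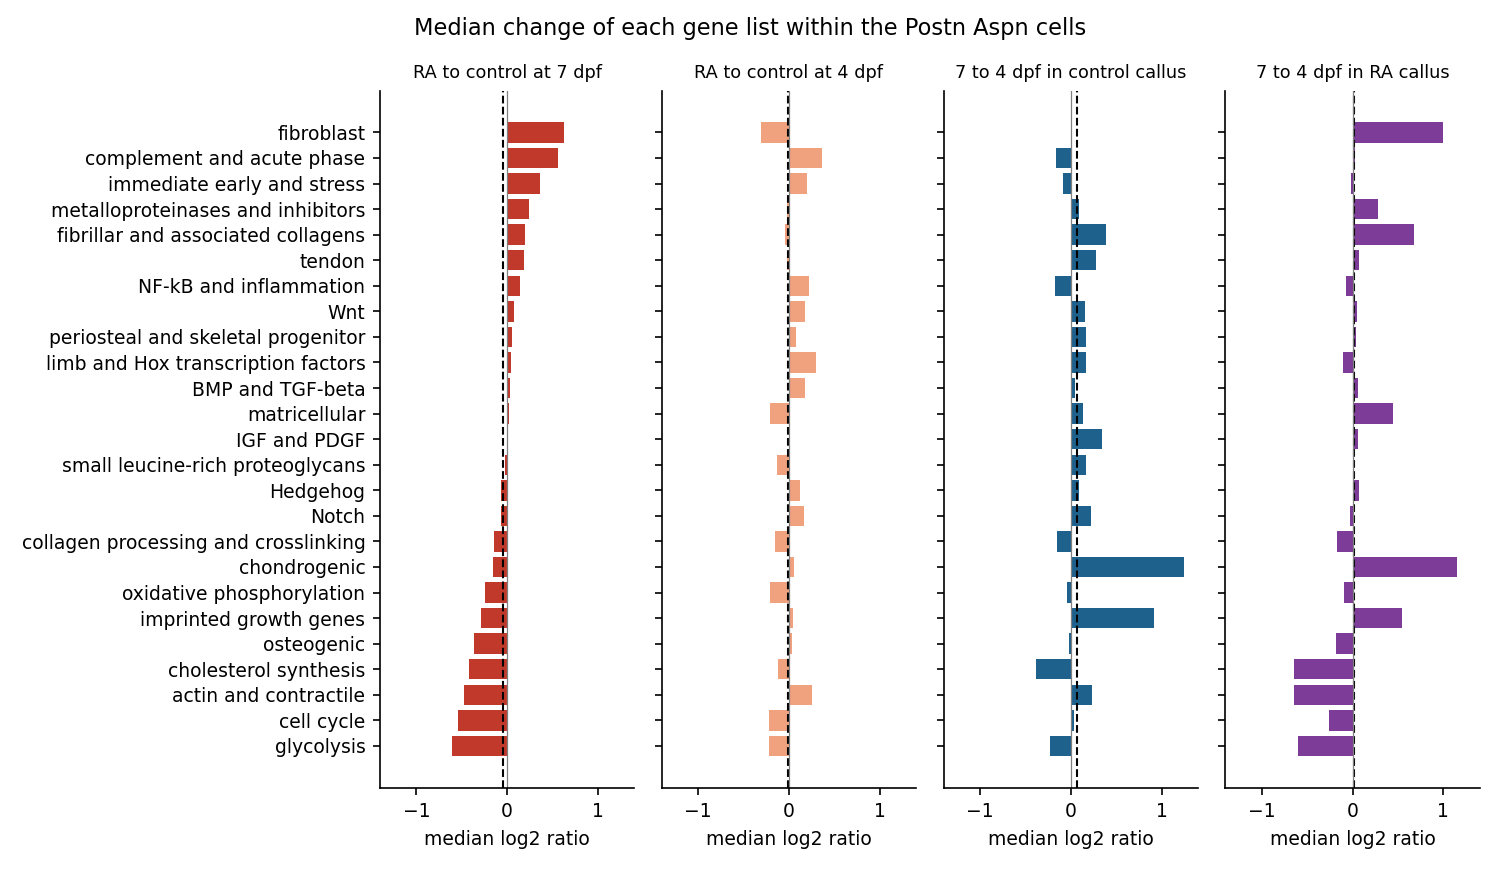
Median log2 ratio of each pathway or lineage list within the *Postn* *Aspn* cells for RA to control callus at 7 and 4 dpf and for 7 to 4 dpf in control and RA callus. Bars are medians over the genes compared and dashed lines the median of all genes; the marker lists of other cell types are not drawn, and of the lists drawn fibroblast genes have the highest and glycolysis genes the lowest median at 7 dpf. The imprinted and the complement lists were chosen after their values were seen.

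A part of these differences was shared with the other *Col1a1* cells of the same libraries. Of the 177 genes at least 2-fold higher in RA callus at 7 dpf, 112 (63.3%) were also at least 2-fold higher in the other *Col1a1* cells, which is 38.5% of the 291 genes called there (2.16% of all genes compared). Of the 114 lower genes compared in both, 51 (44.7%) were also called in the others, 31.1% of 164 (1.22% of all). At 4 dpf fewer genes were called in the others, 39 higher (0.390% of all) and 68 lower (0.680%). Of the higher genes 22 of 154 (14.3%) were shared, 56.4% of the 39, and of the lower genes 52 of 132 (39.4%), 76.5% of the 68. From 4 to 7 dpf in control callus, 88 of 267 higher genes (33.0%) were also called in the others, 36.1% of 244 (1.97% of all), as were 43 of 77 lower genes (55.8%), 18.3% of 235 (1.90% of all). In RA callus 164 of 436 higher genes (37.6%) were, 70.4% of 233 (1.88% of all), and 81 of 229 lower genes (35.4%), 69.8% of 116 (0.937% of all). A change of the same sign, of any size, was seen in the others for 168 of the 177 higher and 104 of the 114 lower genes at 7 dpf. At 4 dpf the counts were 135 of 154 and 124 of 132. From 4 to 7 dpf they were 216 of 267 and 59 of 77 in control callus, and 416 of 436 and 207 of 229 in RA callus. The share of the same sign over all genes is not given here. The cells come from the same libraries, so these shares also carry what the libraries have in common.

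The *Postn* *Aspn* cells of 1 library were not uniform. With every cell thinned to 4000 UMIs, the variance of a gene's UMIs over its mean was taken in each library, and of 2808 genes the median of the lowest value over the 4 libraries was 1.04, close to the value of 1 for random sampling. *Rgs5*, *Malat1* and *Gm42418* had the highest values. *Rgs5* was at 0 in at least 90% of the *Postn* *Aspn* cells of each library and reached 36 to 70 UMIs in single cells. Among matrix genes, *Col3a1* was highest, with a median of 56 UMIs in control_7d (quartiles 36 and 79) and 87 in RA_7d (56 and 117). *Dcn*, which encodes decorin, had a median of 7 UMIs in control_7d (3 and 14) and 14 in RA_7d (8 and 21).

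*Dcn* and *Col3a1* varied against *Acta2* across the cells, while *Tnc* did not. As a description across thinned cells of 1 library, in which genes share depth and the points are not replicates, *Col3a1* and *Dcn* had Spearman correlations of 0.66, 0.67, 0.50 and 0.56 in control_4d, control_7d, RA_4d and RA_7d. *Dcn* and *Clec3b* had 0.56, 0.56, 0.38 and 0.51. *Acta2* and *Tagln* had 0.44, 0.56, 0.36 and 0.37. *Dcn* and *Acta2* had -0.47, -0.41, -0.23 and -0.22, and *Col3a1* and *Acta2* -0.39, -0.32, -0.28 and -0.15. *Tnc* and *Acta2* had 0.44, 0.28, 0.02 and 0.20, and *Postn* and *Tagln* 0.09, -0.08, 0.03 and 0.10. *Postn* and *Acta2* had -0.05, -0.24, -0.16 and -0.06. *Tnc* and *Clec3b* had -0.51, -0.32, -0.16 and -0.36. *Postn* and *Aspn*, both of the rule, had 0.47, 0.41, 0.43 and 0.36. The pairs with *Acta2*, *Tagln*, *Tnc* or *Clec3b* were chosen after their values were seen.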

How the data were processed

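Callus cells were profiled with Chromium Single Cell 3′ chemistry in 4 libraries. The authors aligned the reads with Cell Ranger 7.0.1 to mm10 and deposited raw UMI counts of 32285 genes per cell barcode, without normalization. The members, 31 gene lists and the tests were chosen with earlier results of these data known, and 2 further lists after their values were seen here.

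Cells were filtered, gated on raw UMIs and summed per library with NumPy 2.4.6, pandas 2.3.3 and SciPy 1.17.1 under Python 3.11.15. Sums were scaled to CPM, and log2 ratios took a pseudocount of 1 CPM over genes with at least 50 UMIs in both sums together. A gene was called at a 2-fold ratio. Intervals are exact (Clopper-Pearson for shares, Poisson for levels, conditional for ratios) and cover counting error only. Doublets were called with Scrublet in Scanpy 1.11.5 (609 of the kept cells, 2.39%) and were left out only in an alternative. Blood cells for background were kept cells with at least 2 *Ptprc* UMIs. Positions come from GENCODE M21 for GRCm38. The calculation was checked on simulated data. Genes were named by rank of the log2 ratio, with at least 50 CPM in the higher group, by membership of the rule, and within lists by abundance and by passing 2-fold. The pairs shown for correlation, *Pdgfc*, *Apod*, *Notch3*, *Rorb*, *Has1* and the 2 promoters were picked with their values in view. The alternatives were other cell filters, gates and gene minimums, thinned gates, doublets left out, TMM scaling, a pseudocount of 10 CPM and the mean of per-cell CPM, and, added after seeing the data, *Postn* *Aspn* cells without those with at least 5 UMIs of *Rgs5* or of *Sox10* and *Cdh19* together. Some genes of the lists are not reported here.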

Additional observations from a re-analysis of the deposited data

Results flagged for a closer look

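Genes that were at least 2-fold different between RA and control *Postn* *Aspn* cells at both time points but in opposite directions were looked for, since the 4 and 7 dpf comparisons share no library. Of 9992 genes compared at both, 19 were, and 3 of them reached 50 CPM at both times. *Rorb*, which encodes a nuclear receptor, was at 80.1 CPM in control_4d, 32.1 in RA_4d, 44.0 in control_7d and 125 in RA_7d, so that its log2 ratio of RA to control was 2.77 higher at 7 dpf than at 4 dpf. *Sfrp4*, a Wnt modulator, was at 77.8, 34.3, 85.3 and 189 CPM in the same order, a difference of 2.30. *Has1*, which encodes a hyaluronan synthase, was at 63.1, 30.4, 35.0 and 81.6 CPM, a difference of 2.23. The differences between time points were not tested. The other *Col1a1* cells had 85.5, 32.0, 24.0 and 131 CPM of *Rorb* and 207, 60.4, 67.3 and 237 CPM of *Sfrp4*, and 71.6, 56.0, 25.4 and 105 CPM of *Has1*, which thus differed by less than 2-fold at 4 dpf in those cells.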

How the results depend on the processing

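Of 1372 values of named genes under 14 alternatives, 1367 kept their direction and 1101 stayed within the interval of counting error. *Hbb-bt* from 4 to 7 dpf in control callus turned from -1.80 to 0.0294 when doublets were left out, and with the gate on thinned UMIs the lowest of the 4 ratios to the other *Col1a1* cells fell below 0 for *Col5a3* (-0.16), *Isg15* (-0.11), *Loxl2* (-0.05) and *Glipr2* (-0.05). The ratio of the shares of *Postn* *Aspn* cells at 7 dpf was 0.620 with the gate on thinned UMIs and 0.881 with all kept cells as the denominator. From 4 to 7 dpf it was 0.911 in RA callus with the thinned gate, on the other side of 1 from 1.16, and 4.23 in control and 3.00 in RA callus with all kept cells as the denominator. Counts of genes past 2-fold moved by more than 1.5 times as follows. Against the other *Col1a1* cells 168 became 277 with the looser cell filter, 43 with the thinned gate, 32 with a pseudocount of 10 CPM and 82 with at least 200 UMIs. With a pseudocount of 10 CPM the counts were 62 for RA to control at 7 dpf, 96 at 4 dpf, 59 for 7 to 4 dpf in control and 196 in RA callus. With at least 200 UMIs they were 183, 110, 143 and 346, and with at least 10 UMIs the count at 4 dpf was 727. Without the *Rgs5* and *Sox10* cells 131 genes were higher and 128 lower in RA callus at 7 dpf, in place of 177 and 115. Under the thinned gate they were 119 and 128, and with TMM scaling 191 and 98. The cause of these moves was not tested. In a deep cell a minimum in raw UMIs is easier to reach, and a maximum, as for the excluded genes, is harder to keep. Shares at 4 and 7 dpf are therefore less comparable than shares of the same time point. No paired analysis was possible because each condition has 1 library. The 4 dpf values rest on 140 and 131 cells.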
